A study of Salmo salar with 58 samples.

Results

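A set of genes of the distal intestine was put together because their transcript levels in Atlantic salmon (Salmo salar) followed those of cubn, which encodes the endocytic receptor cubilin. It holds cubn, the lysosomal protease gene lgmn, and the 100 other genes with the highest Pearson correlation to cubn across 27 intestine libraries. They were drawn from 25568 genes with a normalized count of 10 or more in at least 5 of those libraries, out of 26239 genes measured. Correlations were taken on log2 of normalized count plus 2. Of the members, 41 had a gene symbol and 61 had only a LOC number. No function is given here to these 61, apart from LOC100194848, which has a synonym. The weakest members had r of 0.8711 (LOC106602024 and LOC106609471) and 0.8715 (fam83c), and the nearest genes left outside had 0.8704 (snx1a, a sorting nexin) and 0.8702 (slc17a5, the lysosomal sialic acid exporter). lgmn, with r of 0.932, had 19 genes above it. Members were thus chosen by their normalized counts in intestine, and their levels in these libraries are a description and carry no test. The liver libraries took no part in the choice.

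Cubilin is a large receptor on the apical surface of absorptive epithelia in mammals, where it works with amnionless and the adaptor Dab2 to bring luminal protein into the cell by endocytosis. In zebrafish, and in the ileum of suckling mammals, enterocytes rich in lysosomes use this receptor complex to internalize dietary protein, which cathepsins and other acid hydrolases degrade in a large lysosomal vacuole. Vacuolated enterocytes that take up protein are also known from the posterior midgut of salmonids.

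Polyadenylated RNA of liver and distal intestine was sequenced from salmon that had been exposed for 12 h to beauvericin or enniatin B, toxins of Fusarium moulds that contaminate cereals and fish feed. Both are cyclic hexadepsipeptides, and they differ in the N-methylated amino acid of the ring, which is valine in enniatin B and phenylalanine in beauvericin. In each tissue there were 6 libraries each of the low and the high exposure to enniatin B, 5 of low beauvericin, 6 of high beauvericin and 6 of control, whose handling the labels do not describe further. The labels name doses only as low and high, so the same word need not stand for equal doses of both toxins, and they do not state that each replicate number is a separate fish. Values are normalized counts. Libraries held 23.3 to 40.6 M assigned reads in intestine and 30.7 to 61.7 M in liver.

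Some intestine libraries stood apart. Control replicates 5 and 6 were not used to choose the members. They held few transcripts of absorptive enterocytes, with fabp2, a fatty acid binding protein of enterocytes, at 184 and 711, against 30053 to 104053 in 25 other libraries. Low enniatin B replicate 3 and high beauvericin replicate 6 also stood apart, and they carry the pattern described here. In both of them fabp2 lay below that range too, and in low enniatin B replicate 3 it was lower than in control replicates 5 and 6. Every member had its highest value of the 27 in low enniatin B replicate 3 and its next highest in high beauvericin replicate 6. That order held in 3.4% of all 25568 genes (870 genes). The remaining 25 libraries are called the other 25 below.

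cubn itself was detected at a low level in every intestine library apart from these, where it was high. In low enniatin B intestines its normalized count was 47461 in replicate 3 (73284 reads) and 69.4 to 105 in the other 5 replicates. In high enniatin B intestines it lay between 57.8 and 126, with a median of 77.3. In low beauvericin intestines the 5 values were 97.6, 95.02, 92.0, 272 and 108, the 272 belonging to replicate 4. High beauvericin intestines had 10329 in replicate 6 (17211 reads) and 45.5 to 125 in the other 5, and controls had 55.5, 75.2, 71.2 and 94.98 in replicates 1 to 4 and 51.9 and 67.5 in replicates 5 and 6. All groups therefore overlapped at a low level, and the elevated values sat in single libraries of 2 exposure groups. Over the median of the other 25 (85.0, from 71 to 427 reads per library), cubn was 558-fold higher in low enniatin B replicate 3 and 122-fold higher in high beauvericin replicate 6.

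**Figure D1:**
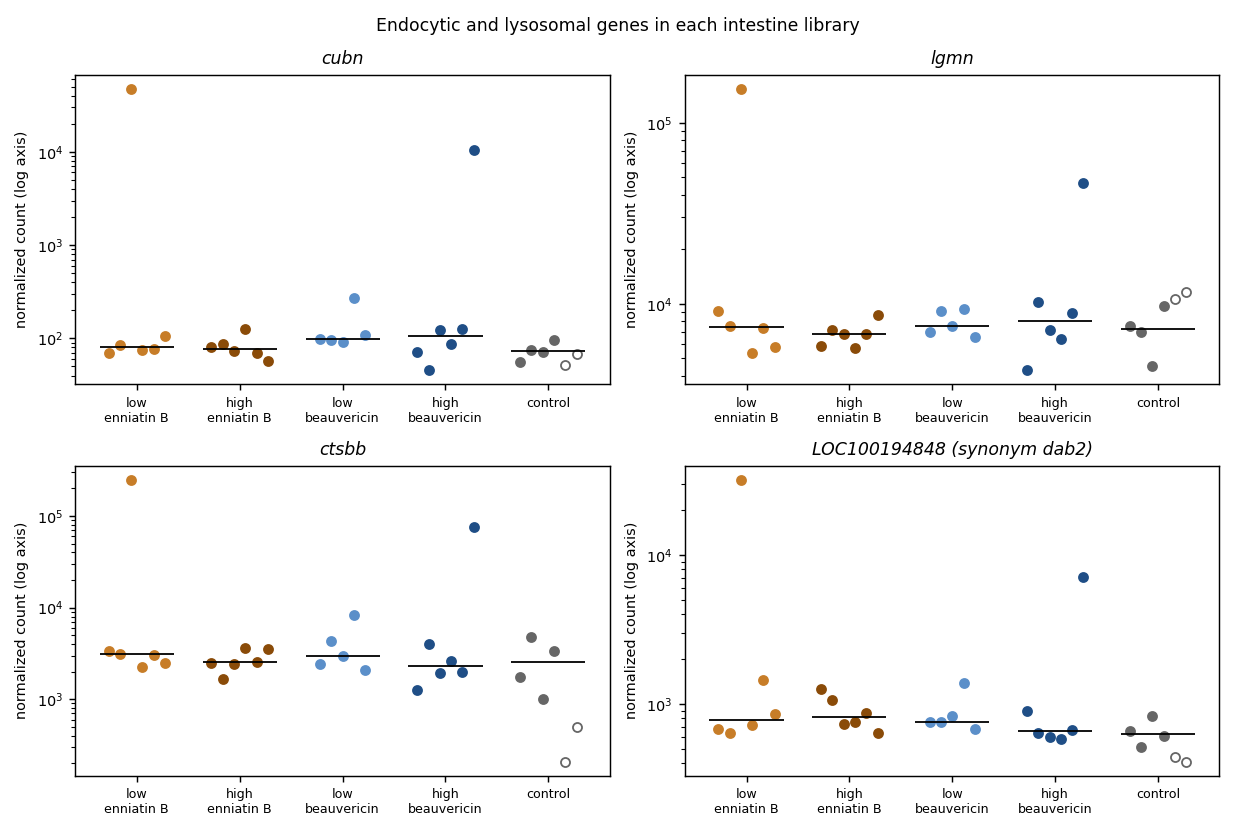
Normalized count (log axis) of cubn, lgmn, ctsbb and LOC100194848 in each intestine library, by exposure group; each point is a library, lines are group medians, and open points are control replicates 5 and 6, which are left out of the control median. Low enniatin B replicate 3 and high beauvericin replicate 6 lie far above all others in every panel, as with cubn at 47461 and 10329.

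The adaptor of the receptor moved in the same way. LOC100194848, which carries the synonym dab2 in the reference table, had 31993 in low enniatin B replicate 3 and 7133 in high beauvericin replicate 6, against 515 to 1447 in the other 25. It was 43.6-fold and 9.72-fold above their median of 734. The general machinery of endocytosis lay closer to the other 25. Of 24 measured genes for endocytic receptors, clathrin, adaptors and sorting, 2 were members, cubn and LOC100194848. pllp, which encodes plasmolipin, an endosomal protein of lysosome-rich enterocytes in zebrafish, was not a member and had 4433 in low enniatin B replicate 3 and 1522 in high beauvericin replicate 6, against 651 to 1580 in the other 25. tmigd1, an adhesion protein gene of the brush border in mammals, had 12172 and 13939, against 70.6 to 7636, and so varied widely among the other 25 too. The clathrin light chain gene clta had 3143 and 1770, against 1305 to 3304, and the early endosome GTPase gene rab5a had 232 and 274, against 179 to 267. Other genes of this list were lower. myo6b had 2509 and 2801, against 2866 to 5166, and ehd1b had 796 and 1077, against 920 to 2175. In low enniatin B replicate 3, 8 of the 24 had their highest value of the 27 libraries, as did 12% of all genes. The median fold of the 24 genes over the other 25 was 1.24 in low enniatin B replicate 3, and 0.991 over all genes. Amnionless could not be examined, since no gene of that symbol was matched.

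Of the 4 lists on endocytosis and the lysosome, that of lysosomal proteases held the largest share of members. These were lgmn, ctsbb, ctsa, ctsz and dpp7, 5 of the 10 measured proteases. lgmn encodes legumain, which cleaves after asparagine. Its normalized count was 154657 in low enniatin B replicate 3 and 5366 to 9063 in the other 5 libraries of that group, and 5657 to 8713 in high enniatin B. The 5 low beauvericin values were 7017, 9115, 7510, 9352 and 6516. High beauvericin had 46353 in replicate 6 and 4284 to 10156 in the rest, and controls 1 to 4 had 7501, 6938, 4498 and 9694, with 10679 and 11591 in controls 5 and 6. Unlike cubn, lgmn was thus abundant in every intestine library, and its elevation was 21.7-fold and 6.51-fold over the median of the other 25.

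ctsbb, a cathepsin B gene, had 247650 in low enniatin B replicate 3 and 75832 in high beauvericin replicate 6, against 1006 to 8296 in the other 25, where the highest value belonged to low beauvericin replicate 4. These values were 97.5-fold and 29.9-fold above the median of 2539. ctsa, for cathepsin A, which also stabilizes lysosomal sialidase and beta-galactosidase in mammals, had 41750 and 18399, against 3927 to 8232. The cysteine carboxypeptidase gene ctsz had 5900 and 1411, against 306 to 831, and dpp7, a dipeptidyl peptidase gene, had 2451 and 1101, against 288 to 462. Proteases that were not members went partly the same way. ctsh, the aminopeptidase cathepsin H, had 40998 and 10620, against 3485 to 11427, while ctsf, a related cysteine protease, had 1116 and 1216, against 706 to 1335. Of the 10 proteases, 8 were more than 2 times above the highest of the other 25 in low enniatin B replicate 3 and 4 were in high beauvericin replicate 6, where 1.76% and 0.34% of all genes were. Over all members the counts were 100 and 52, and members were chosen on these values. Of the 5 proteases that were not members, 3 were above that mark in low enniatin B replicate 3. Such counts compare normalized counts plus 2.

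The list of lysosomal glycosidases, lipases and other hydrolases came next, with 6 members among 23 measured genes. It also holds proteins that are not enzymes, such as that of npc1. glb1, the lysosomal beta-galactosidase, had 54559 in low enniatin B replicate 3 and 17247 in high beauvericin replicate 6, against 792 to 2024 in the other 25. nagab, for alpha-N-acetylgalactosaminidase, had 67764 and 44270, against 1881 to 12850. It was among the members in which the libraries were closest, at 14.4-fold and 9.39-fold. fuca2, an alpha-L-fucosidase gene, had 32045 and 13649, against 1687 to 3318. smpd1, the acid sphingomyelinase, had 5384 and 2493, against 553 to 940. npc1, which exports cholesterol from the lysosome, had 3184 and 1380, against 702 to 1117. Of all 23, 9 and 4 were more than 2 times above the highest of the other 25 in low enniatin B replicate 3 and high beauvericin replicate 6, and the median folds were 2.31 and 1.54. Members among them were chosen on these values. Of the 17 that were not members, 3 were above that mark in low enniatin B replicate 3. idua, the alpha-L-iduronidase gene, lay inside the range of the other 25, at 120 and 132, against 67.4 to 138. The acid phosphatase gene acp5b was below that range in both libraries, at 830 and 1038, against 1049 to 1551.

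The list for the membrane of the lysosome and its proton pump held fewer members. Of its 14 measured genes 1 was a member, atp6v0a1a, a subunit of the vacuolar proton pump, with 1951 in low enniatin B replicate 3 and 1231 in high beauvericin replicate 6, against 559 to 887 in the other 25. A further pump subunit, atp6v1ba, was a member but not on the list, and had 4478 and 2384, against 1111 to 1819. Among genes that were not members, atp6v1ab, another subunit of the pump, had 2708 and 901, against 116 to 783. lamp2, an abundant lysosomal membrane glycoprotein, had 25801 and 18545, against 6628 to 14962, and lamp1 had 2175 and 1916, against 1092 to 1694. In low enniatin B replicate 3, 13 of the 14 had their highest value of the 27 libraries, as did 12% of all genes. Their median fold was 2.24 there and 1.57 in high beauvericin replicate 6.

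Other members with a known role were on none of the lists and were named after their values had been seen. galcb, the galactocerebrosidase, stood at 5075 in low enniatin B replicate 3 and 1442 in high beauvericin replicate 6, against 438 to 812 in the other 25. vps11 and vps18 encode core subunits of the complexes that tether endosomes and lysosomes before fusion. vps11 had 3919 and 1935, against 1046 to 1502, and vps18 had 2234 and 1114, against 533 to 754. hps1, part of the complex that builds lysosome-related organelles in mammals, had 1021 and 454, against 116 to 214. washc2c, a subunit of the endosomal WASH complex, had 1927 and 1364, against 740 to 1102, the smallest fold of any member in low enniatin B replicate 3 at 2.07. npl, the lyase that breaks down sialic acid, had 5439 and 2447, against 295 to 821, and uap1l1, related to the enzyme that makes UDP-N-acetylglucosamine, had 2576 and 924, against 264 to 381. mfsd11, a gene of the major facilitator family of transporters, had 2587 and 512, against 57.4 to 126. tpte, which encodes a membrane phosphatase related to tensin, had 5015 and 2255, against 275 to 859. It lies next to smpd1 in the annotation, and these were the only neighbours among the members.

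Several of the strongest members had no name. LOC106560797 had 631057 in low enniatin B replicate 3 and 166144 in high beauvericin replicate 6, against 427 to 3252 in the other 25, so that it was 605-fold and 159-fold above their median. That single gene made up 3.20% of the counts of low enniatin B replicate 3 and 0.808% of high beauvericin replicate 6, against 0.00209 to 0.0146% in the other 25. LOC106606392 had 6124 and 2026, against 63.2 to 140, and LOC106580030 had 6783 and 1695, against 128 to 296. LOC106589109 had 14613 and 3340, against 342 to 868, and LOC106568950 had 47149 and 16104, against 1009 to 2234.

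**Figure D2:**
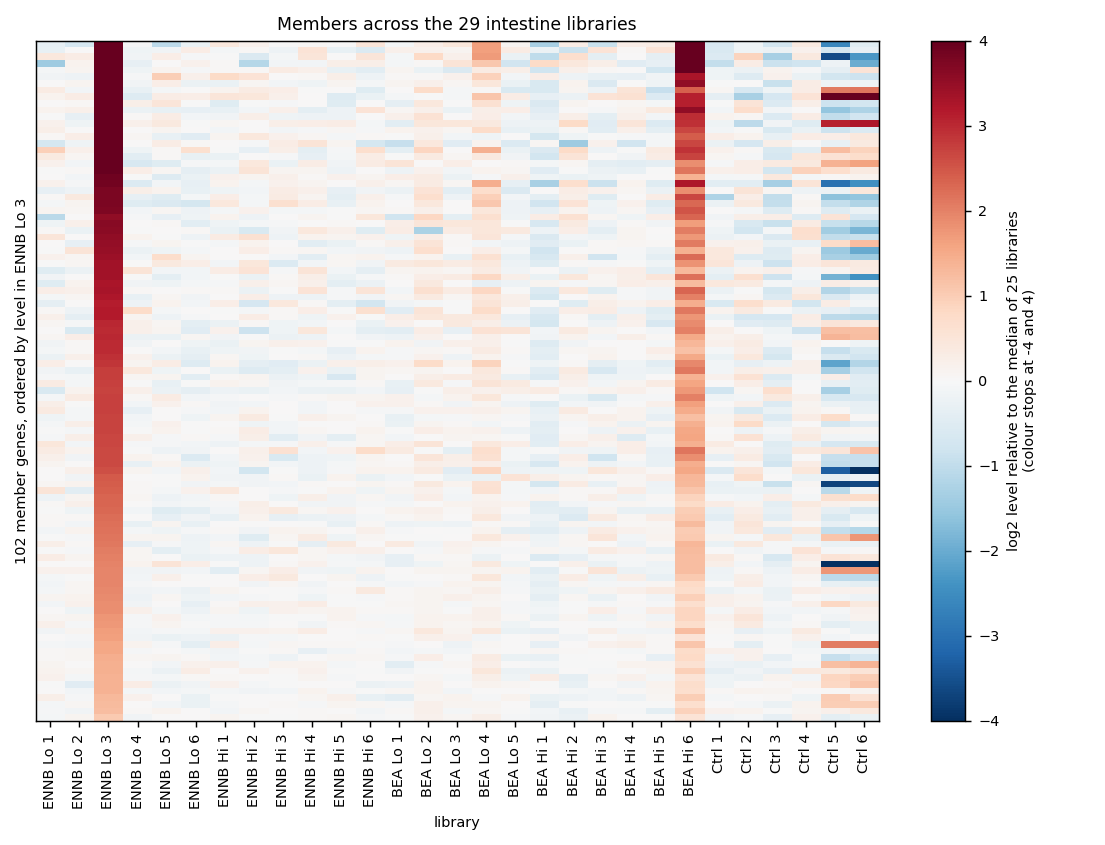
Log2 level of each member (rows) in the 29 intestine libraries (columns, by group), relative to the gene's median over the other 25 libraries; red is higher, blue lower, and the colour stops at -4 and 4. Low enniatin B replicate 3 (median 2.75) and high beauvericin replicate 6 (median 1.52) are high throughout, and control replicates 5 and 6 mix high and low genes.

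As a set, the members took 9.14% of all counts in low enniatin B replicate 3 and 2.87% in high beauvericin replicate 6, against 0.298 to 0.579% in the other 25. The fold over the median of the other 25 ran from 2.07 to 605 in low enniatin B replicate 3, with a median of 6.82, and 36 members exceeded 10-fold. In high beauvericin replicate 6 it ran from 1.46 to 159, with a median of 2.90, and 7 members exceeded 10-fold. As the order of these libraries requires, every member had a smaller excess over the median of the other 25 in high beauvericin replicate 6. As a percentage of the excess in low enniatin B replicate 3 it had a median of 31.4%, quartiles of 22.98 and 39.2%, and a range from 11.5 to 65.9%. Across the members the log2 folds in these libraries had r of 0.948, a description only, since members were chosen for being high in both. In bulk tissue, more cells of a type and more RNA per cell cannot be told apart.

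**Figure D3:**
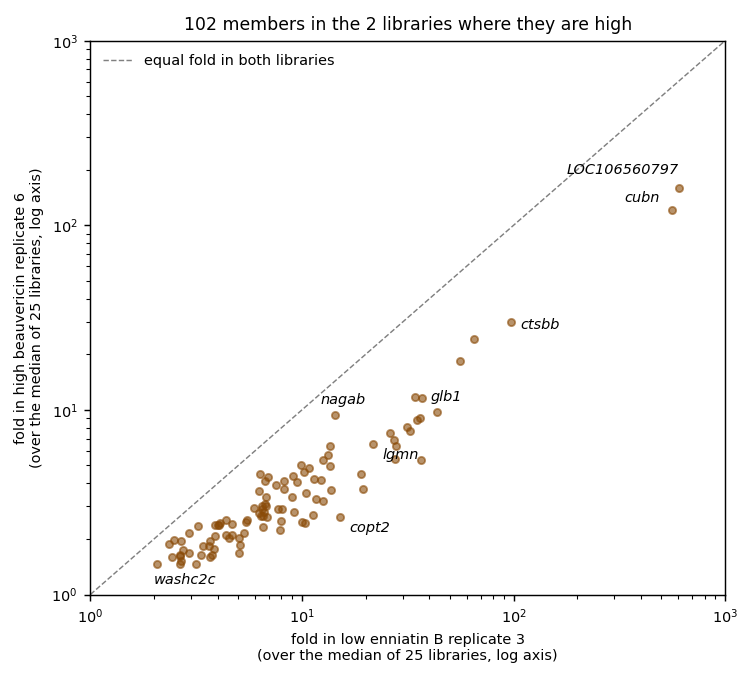
Fold of each member over its median in the other 25 libraries, in high beauvericin replicate 6 (vertical, log axis) against low enniatin B replicate 3 (horizontal, log axis), with a dashed line for equal folds. All members lie below the line, as their order in these libraries requires, from 2.07 to 605 horizontally and 1.46 to 159 vertically.

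A weaker elevation appeared in low beauvericin replicate 4. It was the highest of the other 25 in 34 members, and in 3.76% of all genes. The rule used this library too, and cubn was itself highest of the other 25 there. Members were chosen for following cubn, so the count of 34 is a description only. Against the 24 libraries left, cubn had 272 in low beauvericin replicate 4, against 45.5 to 126, and ctsbb had 8296, against 1006 to 4726. LOC106560797 had 3252, against 427 to 1466, and nagab had 12850, against 1881 to 7568. In 8 members it exceeded 2 times the median of those 24, and the median over all members was 1.24-fold. lgmn was inside the range there, at 9352, against 4284 to 10156.

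The correlation that defines the set rested on low enniatin B replicate 3 and high beauvericin replicate 6. Between lgmn and cubn, r was 0.932 over 27 libraries and Spearman's rho was 0.227. Without these libraries r was 0.0902 over 25. The members' r to cubn without them had a median of 0.191 and ranged from -0.289 to 0.651, and ranking all genes again over those 25 libraries found 5 of the members. That count, like the others of members found again, includes cubn and lgmn, which the rule keeps whatever their rank. Of the libraries left out singly, high beauvericin replicate 6 cost most members, with 77 members found again. Control replicate 2 came next, with 86 found again without it, and 88 were found again without low enniatin B replicate 3. The best correlated member without both was washc2c, followed by the zinc transporter gene znt4 at 0.634.

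Several genes of proximal enterocytes were low where the members were high. Of 14 measured genes for uptake in proximal enterocytes, 6 lay under 0.5 times the lowest of the other 25 in low enniatin B replicate 3, and 2 in high beauvericin replicate 6, against 2.36% and 0.176% of all genes. slc15a1, the peptide transporter of the brush border, had 9.71 in low enniatin B replicate 3 and 4134 in high beauvericin replicate 6, against 9537 to 25030 in the other 25. The related gene slc15a1a had 1.30 and 124, against 1600 to 12319. fabp2 had 60.9 and 21869, against 30053 to 104053, and apoa1, the apolipoprotein of HDL, had 15045 and 194837, against 214365 to 595712. Some genes of this list did not follow. abcg5, one chain of a sterol exporter, had 3174 and 3494, against 1372 to 2666, and slc5a1, the sodium-glucose cotransporter, had 5086 and 9367, against 4750 to 14332.

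Among 6 measured transcription factors of gut and lysosome, 2 lay under 0.5 times the lowest of the other 25 in low enniatin B replicate 3 and 1 in high beauvericin replicate 6. Over all genes the shares were 2.36% and 0.176%. The median fold of the 6 was 0.416 and 1.02. gata4, which in mice maintains the identity of the proximal small intestine, had 0 in low enniatin B replicate 3 and 34.8 in high beauvericin replicate 6, against 881 to 1985 in the other 25. Its r to cubn was -0.963 over the 27 libraries, with low enniatin B replicate 3 and high beauvericin replicate 6 among them. cdx1b, a factor of intestinal identity, was inside the range, with 3915 and 3702, against 2787 to 5034. The summed count of 3 genes of bile acid handling in the ileum was 1392 and 1586, against 301 to 3206. Of 2 measured enteroendocrine genes, 1 lay under 0.5 times the lowest of the other 25 in each of these libraries, and the other gene did not. The lowered gene was the peptide gene pyy, with 74.5 and 343, against 1120 to 2558. The median fold of the 2 genes was 0.623 and 0.571. The part of sampling position, of cell composition or of RNA content per cell in these differences was not tested.

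**Figure D4:**
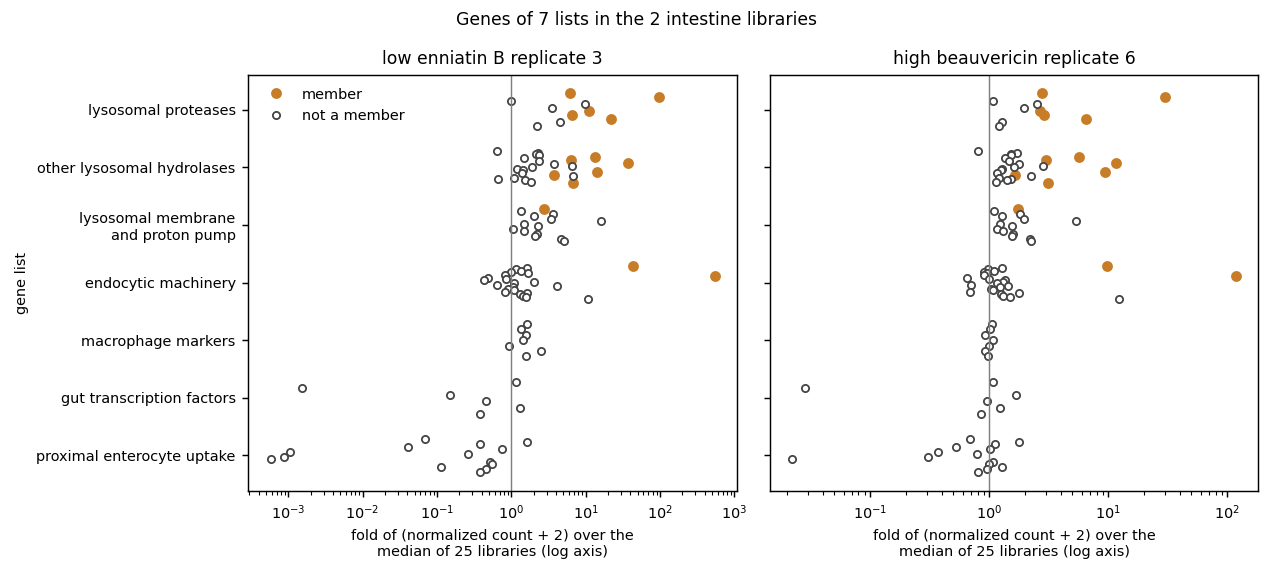
Fold of normalized count plus 2 over the median of the other 25 libraries (log axis) for each measured gene of 7 lists, in low enniatin B replicate 3 (left) and high beauvericin replicate 6 (right); filled points are members. Lysosomal proteases and hydrolases spread to the right, macrophage markers stay under 3, and proximal enterocyte genes spread to the left. In the row of gut transcription factors, gata4 lies on the left in both panels. Its normalized counts, which are not folds, were 0 in the first library and 34.8 in the second.

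Phagocytes also carry many lysosomal enzymes, so their markers were examined. Of 7 measured macrophage and phagocyte genes, 5 had their highest value of the 27 in low enniatin B replicate 3, as did 12% of all genes, and 0 were more than 2 times above the highest of the other 25. Their median fold over the other 25 was 1.57 in low enniatin B replicate 3 and 1.01 in high beauvericin replicate 6. c1qa, for a chain of complement C1q, had 1490 and 867, against 722 to 1226, and another C1q chain gene, c1qc, had 933 and 697, against 416 to 883. LOC100380615, listed for c1qb, had 2344 and 1516, against 1176 to 2175. Of the genes for NADPH oxidase subunits, cybb had 331 and 119, against 77.9 to 203, and ncf1 had 502 and 313, against 233 to 385. These 5 were above the range of the other 25 in low enniatin B replicate 3 and inside it in high beauvericin replicate 6. cd68, a lysosomal glycoprotein of macrophages, had 8088 and 8639, against 7252 to 10213, and carried most of the summed count. The summed normalized count of the 7 was 14088 in low enniatin B replicate 3 and 12454 in high beauvericin replicate 6, against 10881 to 14330. alb2, an albumin gene of hepatocytes, had 2.59 and 3.60, against 0 to 38.5, and was the single gene of 12 matched hepatocyte markers to pass the filter. slc12a1, a salt transporter best known from kidney tubules, had 186 and 367, against 178 to 1138. The summed count of 4 smooth muscle genes was 46450 and 108981, against 33868 to 130572, that of 3 goblet cell genes was 24745 and 30764, against 28120 to 42304, and that of 6 T and B cell genes was 2591 and 2212, against 1659 to 3198. Of 5 exocrine pancreas genes the sum was 617 and 196, against 54.1 to 6345, and of 5 red cell genes it was 687 and 478, against 406 to 2007. Single markers of these lists lay outside the range where the sum did not. pdia2, the pancreatic disulfide isomerase gene, had 412 and 46.8, against 22.6 to 147, and gata1, a red cell transcription factor, had 81.6 and 22.8, against 11.6 to 79.0. nfe2, another red cell transcription factor, had 236 and 171, against 181 to 351. The part of these cells in the pattern was not tested.

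Control replicates 5 and 6 had members on both sides of the range of the other 25. In replicate 5, 38 members lay below that range, 41 within and 23 above, where 26.6%, 46.96% and 26.4% of all genes did. In replicate 6 the counts were 37, 41 and 24, and the shares of all genes 29.1%, 44.2% and 26.7%. Both replicates were below the range in 30 members and above it in 21, and over all genes in 22.2% and 21.6%. ctsbb had 209 and 499, and LOC106608986 had 2017 and 1537, against 12.7 to 75.1 in the other 25.

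Group comparisons in intestine shifted with these single libraries. They were fitted over all 25568 genes with limma on log2 of normalized count plus 2, with controls 1 to 4 as control and Benjamini-Hochberg adjustment, where a gene is called at an adjusted p under 0.05. Since the rule used these libraries, nothing is read from the counts. The shares of all genes with a change above 0 are not given here, so the numbers of members above 0 are a description only. After low enniatin B the median log2 change of the members against control was 0.47, with every member above 0 and 0 called (0% of all genes). After high enniatin B it was 0.03, with 59 above 0 and 0 called (0%). After low beauvericin it was 0.10, with 75 above 0 and 0 called (0.00391%), and after high beauvericin 0.24, with 93 above 0 and 0 called (0.00391%). Without low enniatin B replicate 3 and high beauvericin replicate 6, the median after low enniatin B was -0.0024, with 51 above 0, and after high beauvericin -0.05, with 42 above 0. Between toxins, low enniatin B against low beauvericin had a median of 0.33 and 0 called (0%), and high enniatin B against high beauvericin had -0.19 and 0 called (0.00391%). High against low enniatin B had -0.47 and 0 called (0%), and high against low beauvericin had 0.12 and 0 called (0%). These comparisons share libraries, controls included.

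The elevation was not seen in liver libraries of the same labels. Of the members, 100 passed the filter in liver, and ctsbb and LOC106613644 did not. cubn had a median of 58.04 over 29 liver libraries, from 15 to 85 reads each. Its normalized count was 29.1 to 97.0 in low enniatin B livers with a median of 58.1, 24.7 to 82.3 in high enniatin B with 58.2, and 32.3 to 91.5 in high beauvericin with 68.5. The 5 low beauvericin livers had 44.01, 25.8, 25.1, 46.02 and 63.4, and the control livers 23.95 to 75.2 with a median of 54.7. All groups overlapped. The livers of low enniatin B replicate 3 and high beauvericin replicate 6 had 37.3 and 91.5, against 23.95 to 97.0 over all 29 liver libraries. The 91.5 was the highest of the high beauvericin livers. Whether replicate numbers match between tissues is not given by the labels. The members made up 0.125 to 0.164% of the counts of every liver library, and their r to cubn in liver had a median of 0.00396 and a range from -0.393 to 0.401.

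The level in liver over that in the other 25 intestine libraries differed widely between members. Its log2 ratio had a median of -0.35, with 33 members below -1 and 15 above 1. The shares of all genes beyond these marks are not given here, so these counts are a description only. The scaling differed by tissue, with 1 read standing for a normalized count of 0.540 to 0.900 in intestine and 0.848 to 1.84 in liver. By share of all counts, the members took 0.125 to 0.164% in liver, against 0.298 to 0.579% in the other 25 intestine libraries. At the low end of the log2 ratio, ctsbb had a median of 3.39 in liver, against 2539 in intestine. LOC106613644 had 1.62, against 300.1, and LOC100286622 had 37.1, against 2251. At the high end, LOC106577910 had 1118, against 25.3, zgc:110239 had 14219, against 678, and smpd1 had 7560, against 802. Members from the hydrolase and protease lists did not go one way. nagab had 206 in liver, against 4713 in intestine, and glb1 had 522, against 1481, while dpp7 had 1358, against 378, and npc1 had 1896, against 843. The tissue difference of single genes was not tested.

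**Figure D5:**
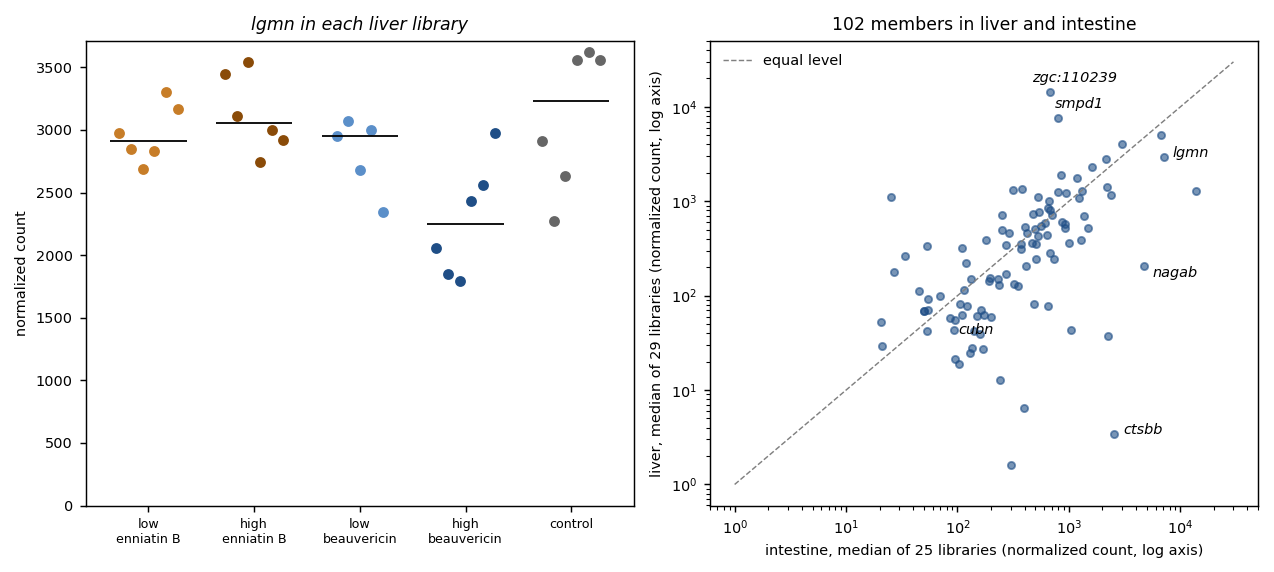
Left: normalized count of lgmn in each liver library by exposure group, with lines at the group medians. Right: median level of each member in 29 liver libraries (vertical, log axis) against the median of the other 25 intestine libraries (horizontal, log axis), with a dashed line for equal levels; ctsbb lies far below the line (3.39 against 2539) and zgc:110239 far above it (14219 against 678).

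In liver no member was called in any of the 8 comparisons with limma over 25157 genes, where 0% of all genes were called in 7 comparisons and 0.127% after low beauvericin against control. At an unadjusted p under 0.05 there were 3 of 100 members after low enniatin B (3.64% of all genes), 5 after high enniatin B (2.77%), 6 after low beauvericin (8.27%) and 9 after high beauvericin (9.44%), each against control. The counts were 5 for low enniatin B against low beauvericin (3.99%) and 11 for high enniatin B against high beauvericin (10.3%). They were 2 for high against low enniatin B (3.06%) and 5 for high against low beauvericin (3.8%). edgeR's quasi-likelihood test called 0 members in every comparison, and DESeq2 called 2, both in high enniatin B against high beauvericin, where it called 0.183% of all genes and edgeR 0%. Because the labels do not tie the libraries to separate fish, these p-values measure the spread between libraries.

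Median log2 changes of the 100 members in liver were small: -0.04 after low enniatin B, -0.02 after high enniatin B, -0.05 after low beauvericin and -0.02 after high beauvericin, against control. The 95% intervals lay within -1 to 1 for 87, 90, 82 and 84 members in the same 4 comparisons, so a change of 2 times or more was outside the interval for most but not all of them. Between toxins, the intervals of low enniatin B against low beauvericin lay within those limits for 86 members, and those of high enniatin B against high beauvericin for 84.

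The smallest p-values in liver belonged to 3 members and high beauvericin. lgmn had 1791 to 2976 in high beauvericin livers with a median of 2245, against 2274 to 3621 in control livers with a median of 3235. The groups overlapped, and the log2 change was -0.44 ± 0.13 (SE, n = 6 each, limma adjusted p = 0.30). High enniatin B livers had 2744 to 3542, and the difference of high enniatin B from high beauvericin was 0.48 ± 0.13 (limma adjusted p = 0.27). LOC106564061 had 285 to 510 in high enniatin B livers, against 193 to 287 in high beauvericin livers, with values overlapping only narrowly, and a difference of 0.59 ± 0.14 (limma adjusted p = 0.22, DESeq2 adjusted p = 0.046). LOC106594885 had 36.1 to 109 in high enniatin B livers, against 14.95 to 54.04 in high beauvericin livers, a difference of 1.11 ± 0.26 (limma adjusted p = 0.19, DESeq2 adjusted p = 0.018). High beauvericin livers held 57.8 and 61.7 M reads in replicates 1 and 3 and 35.3 to 37.4 M in the rest. The other liver groups held 30.7 to 39.9 M, and the part of depth in these differences was not tested. After low enniatin B the smallest p was that of mtmr12, a myotubularin-related gene, at -0.41 ± 0.15 against control (limma adjusted p = 0.9999). None of these changes passed with limma.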

How the data were processed

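RNA of liver and distal intestine was extracted with QIAzol and a tissue kit, enriched for polyadenylated RNA and sequenced as paired reads, per the labels' protocols. The submitters' processing notes name Trim Galore 0.4.2, FastQC, HISAT2, featureCounts (Subread) and DESeq2 1.18.1, with no roles. For HISAT2 a version, and for the genome a build, were not given in the sources used here. Coordinates are therefore left out. The deposited signal is a normalized count per gene, in which the authors divided reads by a factor of each library. Multiplied back, 99.9999% of values lay within 0.1 read of a whole read (largest distance 0.165), and counts of reads come from this step. The lowest mean of any gene over the libraries was 21.1, so weakly expressed genes are missing. Symbols come from the assembly Ssal_v3.1, which held 24184 of the 26239 GeneIDs and 97 of the members. Salmon carry many near-identical gene copies, whose values are uncertain where they share reads.

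The members and all gene lists were chosen with earlier results of these data known. Fits used limma 3.58.1 in R 4.3.3 with trended, robust moderation of the variance on log2 of normalized count plus 2, over all genes that reached 10 in 5 libraries of the tissue or more. The fits held 29 liver libraries or 27 intestine libraries. Of the fits, only limma and edgeR were tested on simulated counts, for high beauvericin against control in liver. Limma stands in place of a count test because the values are normalized. The recovered reads were tested with edgeR 4.0.16 quasi-likelihood, DESeq2 1.42.0 and voom, with other pseudocounts, no filter, a replicate block and single libraries left out as further alternatives. Genes named are cubn, lgmn, the 12 other members with a symbol and the 5 without one that have the highest r, members on a list, and the 3 with the highest and lowest ratio of liver to intestine. Other members, and list genes that were not members, were named for their known roles or their values after these had been seen. List genes were matched by symbol or synonym. Sequences were not used here, and a member of the lists is not reported here.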

Additional observations from a re-analysis of the deposited data

Results flagged for a closer look

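Single libraries lay far from the rest of their group. The measure is the gap to the nearest library divided by the range of the group, on log2 of normalized count plus 2, and it was set against the 95% limit for the group's size, which chance passes in about 1 of 20 groups. For cubn the ratio was 0.938 for low enniatin B replicate 3, 0.818 for high beauvericin replicate 6 and 0.855 for low beauvericin replicate 4. For lgmn it was 0.844 for low enniatin B replicate 3 and 0.638 for high beauvericin replicate 6. The members were chosen for following cubn, whose correlations rest on low enniatin B replicate 3 and high beauvericin replicate 6, so their counts in those groups come with the choice and are a description. Of the members in intestine, 101 had such a library in the low enniatin B group, 5 in high enniatin B, 6 in low beauvericin, 75 in high beauvericin and 6 in control. The control group here held all 6 libraries, replicates 5 and 6 included. Over all genes past the filter the shares in the same order were 13.5%, 5.76%, 5.49%, 5.98% and 3.02%. In liver the numbers were 6 for low enniatin B, 7 for high enniatin B, 2 for low beauvericin, 5 for high beauvericin and 6 for control, and the shares over all genes 5.93%, 7.18%, 5.88%, 5.87% and 5.32%. All 75 in high beauvericin intestine were high values of replicate 6.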

How the results depend on the processing

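The count of called members was 0 under all 288 alternatives in intestine and 287 of 288 in liver. The exception was DESeq2, which called 2 members in liver for high enniatin B against high beauvericin among 0.183% of all genes, where limma called 0; the cause was not tested. The replicate number as a block gave 0 called members in every comparison. Deviations of libraries with the same number in different groups had correlations from -0.213 to 0.306 in liver and -0.367 to 0.295 in intestine. With different numbers they ran from -0.276 to 0.354 in liver and -0.504 to 0.570 in intestine. No pairing by number was thus visible within a tissue. Pairing of liver with intestine was not tested. Membership was the result that changed. All its counts include cubn and lgmn, which the rule keeps whatever their rank. Ranking by Spearman's rho found 6 of the members again, and leaving out low enniatin B replicate 3 and high beauvericin replicate 6 together, an alternative chosen after seeing the data, found 5. In the last case the libraries that separate the members are gone by construction. Leaving out single libraries gave 77 to 101. Other settings gave 101 with log2 of value plus 1, 98 with plus 8, 94 with no filter, 91 with group means subtracted, 83 in the 23 exposed libraries, 73 with all 29 libraries and 70 with r to lgmn. Depth limits cubn outside the 2 libraries, where it had 71 to 427 reads per intestine library.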
